A study of Mus musculus with 15 samples.

Results

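Acat1, Bdh1, Slc16a1 and Slc16a6 were followed in livers of male wild-type C57BL/6J mice kept for 9 months on 1 of 3 diets. Their products serve ketone body production in the liver and the exit of ketone bodies from the cell. The 4 genes, like the gene lists below, were chosen by symbol with earlier results of these data known. Counts of called genes set beside the share of all genes are therefore only descriptive. Each of the 4 genes matched 1 row, and the 4 rows stood among 56980 gene IDs. All 4 passed the filter on low counts, as did 14627 genes in all. Of the libraries, 5 came from mice on a ketogenic diet with 89.9% fat, 5 from mice on a high-fat diet with 60% fat and 5 from mice on a control diet with 10% fat. The mice were 15 weeks old when the diets began, and the labels add the letters ALF to every diet name without spelling them out. The submitters call control replicate 1 contaminated, and it enters no comparison, which left 4 control libraries. Whether every library stands for its own mouse is not stated, so p-values describe only the spread between these libraries.

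Ketone bodies are made in hepatocyte mitochondria when fatty acid oxidation yields more acetyl-CoA than the citric acid cycle takes up, as in fasting or on very little carbohydrate. Acat1 encodes the mitochondrial thiolase that joins a pair of acetyl-CoA molecules to acetoacetyl-CoA, the entry to the pathway. Bdh1 encodes the mitochondrial dehydrogenase that interconverts acetoacetate, the first free ketone body, and beta-hydroxybutyrate. Ketone bodies then cross the plasma membrane on proton-coupled carriers of the SLC16 family, which also carry lactate and pyruvate. Slc16a1 encodes MCT1, the most widely expressed carrier, and Slc16a6 encodes MCT7, whose counterpart in zebrafish exports beta-hydroxybutyrate from hepatocytes. Liver exports ketone bodies for other organs because hepatocytes hold very little of the enzyme, encoded by Oxct1, that activates acetoacetate for oxidation.

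The start regions of an enzyme gene and a carrier gene are shown to set their base composition side by side. Each line holds 250 bases before a RefSeq transcript start on build GRCm38.p6, on the plus strand, with letters in capitals where a searched motif matched. Of 2 such windows for Bdh1, the other lies wholly in annotated exon and is not shown. The files were made on GRCm39, so these coordinates belong to the sequences alone.
Bdh1, chr16:31422047-31422296: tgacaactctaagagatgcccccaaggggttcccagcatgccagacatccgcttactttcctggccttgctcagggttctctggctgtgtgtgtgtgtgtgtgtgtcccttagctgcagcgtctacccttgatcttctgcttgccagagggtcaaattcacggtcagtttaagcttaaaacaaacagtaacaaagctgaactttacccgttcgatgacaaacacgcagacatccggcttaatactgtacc
Slc16a1, chr3:104638414-104638663: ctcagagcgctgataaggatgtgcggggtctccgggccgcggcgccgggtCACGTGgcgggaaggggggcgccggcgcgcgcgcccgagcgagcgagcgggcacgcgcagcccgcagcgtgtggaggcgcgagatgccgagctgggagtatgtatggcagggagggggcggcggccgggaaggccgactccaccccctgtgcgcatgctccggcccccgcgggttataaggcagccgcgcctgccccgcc
The Slc16a1 window held 37 CG dinucleotides and 76.4% G or C, against 7 and 49.6% in the Bdh1 window, 17 bases of which lie in exons of GENCODE M21. Both strands were searched for the direct repeat of AGGTCA with 1 spacer base, of the kind bound by PPAR-alpha, for the single half-site AGGTCA, which lies within the repeat, and for the E-box CACGTG. Only the E-box was found, once, beginning 200 bases before the Slc16a1 start. Among 32851 RefSeq start regions of the same length, 0.0335% held the repeat, 14% the half-site and 6.02% the E-box.

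The 14 libraries held 16329425 to 25349148 counts. Expression is in CPM (each count divided by its TMM-scaled library total, as a rate) and are given as mean ± SD. Of all tested genes, 12.1% were called (adjusted p under 0.05) in ketogenic against control livers, 12% in high-fat against control livers and 0.0615% in ketogenic against high-fat livers. Ketogenic replicate 5 stood apart from the other ketogenic libraries: on the second principal component (16.5% of the variance) it lay at -26.2 and the other 4 between 23.3 and 51.9. Its 7 hepatocyte markers summed to 62000 CPM, against 83650 to 115700 CPM in the other ketogenic libraries, and its 8 macrophage markers to 719.8 CPM, against 220.4 to 291 CPM. Its markers of cholangiocytes summed to 201.4 CPM (31.0 to 57.7 in the other 4), of stellate cells and fibroblasts to 483.9 CPM (267.4 to 332.8) and of lymphocytes to 15.4 CPM (3.17 to 3.86). Results of the 4 members on the ketogenic diet are therefore given with and without it, as are counts of gene lists where they move. Values of single genes of the lists come from all libraries unless said otherwise. On the first component (34.4% of the variance) high-fat replicate 1, at 15.7, fell between the other high-fat libraries (-34.6 to -17.6) and the controls (41.9 to 50.7), and results on the high-fat diet are given without it where they move. The defining hepatocyte markers were high in all libraries but lower on both fat-rich diets. They summed to 62000 to 115700 CPM in ketogenic and 82650 to 116200 CPM in high-fat livers, against 120100 to 154600 CPM in controls. Of the 7 markers, 1 was called lower in ketogenic and 0 in high-fat livers. Of 8 macrophage markers, 2 were called higher and 1 lower in ketogenic livers, and 1 higher and 0 lower in high-fat livers. Cholangiocyte markers summed to 31.0 to 201.4 CPM in ketogenic, 58.2 to 95 CPM in high-fat and 30.4 to 47.9 CPM in control livers. Of those 5 markers 0 were called on either diet. Adipocyte markers had a median sum of 86.3 CPM in ketogenic, 40.2 CPM in high-fat and 20.3 CPM in control livers, with 2 of 4 tested called higher in ketogenic and 1 in high-fat livers. Stellate cell and fibroblast markers summed to 267.4 to 483.9 CPM in ketogenic, 306.9 to 395.7 CPM in high-fat and 230.9 to 267.8 CPM in control livers, with 1 of 5 called higher on each fat-rich diet. Pancreatic acinar markers summed to 1289 CPM in control replicate 2, against 24.7 to 139 CPM in the other controls. In high-fat replicate 1 they summed to 577.8 CPM, against 81.05 to 316.9 CPM in the other high-fat libraries. Ketogenic libraries held 6.96 to 241.1 CPM, and 0 of 7 markers were called on either diet. Of all tested genes 7.47% were called higher and 4.6% lower in ketogenic, and 6.95% and 5.01% in high-fat livers. The part of these cell types in the results was not tested.

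Per kilobase of exon, Acat1 was the highest of the 4 genes on every diet, followed by Bdh1, Slc16a1 and Slc16a6. The level of Acat1 was 184.5 ± 40.3 CPM per kilobase in ketogenic, 137.4 ± 14.3 in high-fat and 74.4 ± 7.95 in control livers (n = 5, 5 and 4 for all 4 genes). Bdh1 followed at 96.4 ± 24.5, 70.4 ± 4.92 and 40.6 ± 6.14 CPM per kilobase on the ketogenic, high-fat and control diets. The carriers were much lower. Slc16a1 stood at 13.03 ± 2.77, 13.5 ± 3.77 and 9.35 ± 1.999 CPM per kilobase, and Slc16a6 at 3.06 ± 0.489, 2.22 ± 0.335 and 2.33 ± 0.849 CPM per kilobase, in the same order of diets. On each diet the ranges of neighbours in this order did not overlap, and Slc16a6 rested on the fewest reads, 115 to 445 per library.

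**Figure D1:**
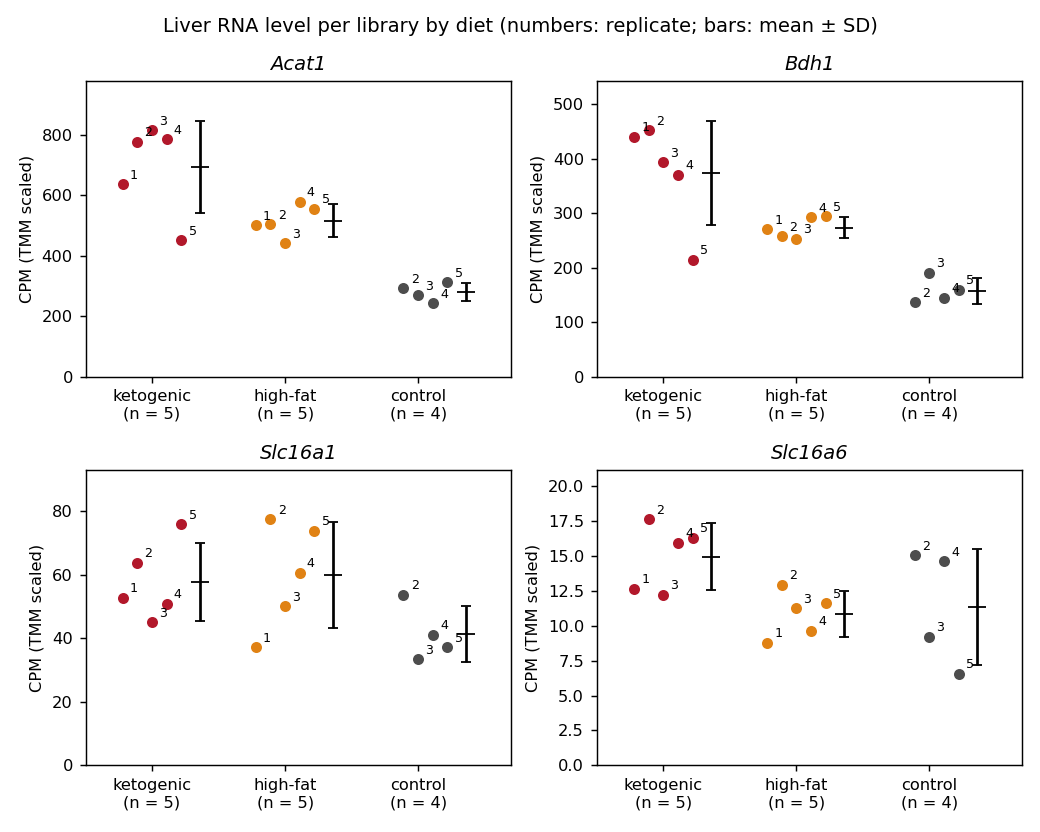
CPM (vertical axes, starting at 0 and scaled for each gene) of Acat1, Bdh1, Slc16a1 and Slc16a6 in each ketogenic, high-fat and control library, with the replicate number beside each point and the mean ± SD as a bar. Acat1 and Bdh1 show no overlap between either fat-rich diet and control, whereas the points of Slc16a1 and Slc16a6 overlap between all diets.

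Both enzyme genes were higher after the ketogenic diet than after the control diet, with no overlap between the libraries. Acat1 had 637, 778, 815, 785 and 452 CPM in ketogenic replicates 1 to 5, against 293, 269, 244 and 313 CPM in control replicates 2 to 5. Every ketogenic library lay above every control library, with replicate 5 the lowest of the 5. Acat1 rose 2.48-fold (95% interval 1.95 to 3.16; log2 fold change 1.31 ± 0.16 (SE)), with an adjusted p of 0.000127. Adjusted p-values are from the quasi-likelihood test of edgeR, adjusted by Benjamini-Hochberg over all genes tested in the fit: 14627 with all libraries, 14400 without ketogenic replicate 5 and 14583 without high-fat replicate 1. Bdh1 had 441, 452, 394, 371 and 215 CPM in ketogenic replicates 1 to 5, against 136, 191, 145 and 159 CPM in control replicates 2 to 5. Its groups did not overlap either, although ketogenic replicate 5 came close to control replicate 3. Bdh1 rose 2.37-fold (95% interval 1.81 to 3.10; log2 fold change 1.25 ± 0.18 (SE), adjusted p = 0.000384). Without ketogenic replicate 5 the rises were 2.67-fold for Acat1 and 2.59-fold for Bdh1, both with an adjusted p of 3.95e-06, where 7.24% of genes were called higher. The 2 genes were the members called higher, 2 of 4, where 7.47% of all tested genes were called higher and 7.38% lay wholly above control. In tissue RNA, fewer cells of a type and less RNA per cell cannot be told apart.

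After the high-fat diet both enzyme genes were also higher than in controls. Acat1 had 502, 504, 441, 579 and 556 CPM in high-fat replicates 1 to 5, against the 244 to 313 CPM of the controls. It rose 1.85-fold (95% interval 1.46 to 2.35; log2 fold change 0.89 ± 0.16 (SE), adjusted p = 0.00272). Bdh1 had 271, 258, 253, 293 and 294.5 CPM in the high-fat libraries, against 136 to 191 CPM in controls, and varied less within the high-fat group than within the others, by 6.98% (SD over mean) against 25.5% in ketogenic and 15.1% in control livers. It rose 1.73-fold (95% interval 1.33 to 2.26; log2 fold change 0.79 ± 0.18 (SE), adjusted p = 0.0100). All 5 high-fat libraries exceeded all 4 controls for both genes. Across the genome 6.95% of tested genes were called higher in this comparison and 9.45% lay wholly above control. Both calls held in each of the 9 fits that left out 1 high-fat or control library. The same 4 control libraries served both diet comparisons, so their results are not independent.

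Between the fat-rich diets the enzyme genes did not pass the test with all libraries. Of 10 fits that each left out 1 ketogenic or high-fat library, both genes passed in only 1, the fit without ketogenic replicate 5. Acat1 averaged 693 ± 152 CPM in ketogenic and 516.5 ± 53.8 CPM in high-fat livers (SD, n = 5 each), a 1.34-fold difference (95% interval 1.08 to 1.68, adjusted p = 0.363). Bdh1 averaged 375 ± 95.4 CPM in ketogenic and 274 ± 19.1 CPM in high-fat livers, a 1.37-fold difference (95% interval 1.07 to 1.75, adjusted p = 0.398). In both genes ketogenic replicates 1 to 4 lay above all 5 high-fat libraries, while replicate 5 lay within the high-fat range for Acat1 and below it for Bdh1. Without replicate 5, Acat1 averaged 739.9 ± 79.8 CPM in 4 ketogenic and 507 ± 57.6 CPM in 5 high-fat livers and was 1.46-fold higher (95% interval 1.22 to 1.74, adjusted p = 0.0266). Bdh1 was then at 407 ± 36.3 CPM in ketogenic and 269 ± 21.3 CPM in high-fat livers, 1.51-fold higher (95% interval 1.28 to 1.79, adjusted p = 0.0136). With all libraries 0.00684% of tested genes were called higher in this comparison and 0.875% lay wholly above the high-fat libraries. Without replicate 5, 2.19% were called in either direction and 0.938% higher, with 3.44% wholly above the high-fat libraries. Replicate 5, the lowest ketogenic library for both enzymes, also held the lowest hepatocyte marker sum of the ketogenic group and the highest sums of macrophage, cholangiocyte, stellate cell and lymphocyte markers. All of those markers had counts in every diet, and their part in the enzyme values was not tested.

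**Figure D2:**
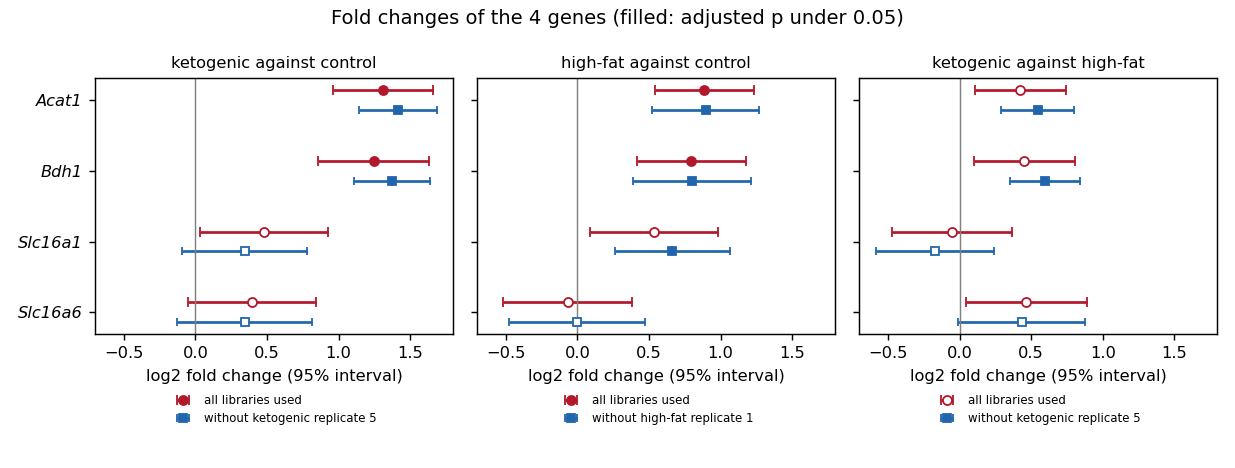
Log2 fold changes (horizontal axis) of the 4 genes in the 3 comparisons, with 95% intervals, for all 14 libraries (circles) and without 1 library that stood apart (squares). Filled symbols had an adjusted p under 0.05. Acat1 and Bdh1 are filled in both comparisons with control, and against high-fat livers only in the fit without ketogenic replicate 5.

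The carrier genes gave smaller differences from control, none of which passed the test as fitted here with all libraries. Slc16a1 had 52.8, 63.8, 45.1, 50.9 and 76.0 CPM in ketogenic replicates 1 to 5, against 53.8, 33.4, 41.2 and 37.1 CPM in control replicates 2 to 5. Control replicate 2, with the highest pancreatic acinar marker sum of the controls, lay above 3 of the 5 ketogenic libraries. The level was 1.39-fold that of controls (95% interval 1.02 to 1.90, adjusted p = 0.151). Ketogenic replicate 5, the lowest of its group for the enzymes, was the highest for Slc16a1, and without it the difference was 1.27-fold (95% interval 0.938 to 1.72, adjusted p = 0.307).

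In high-fat livers Slc16a1 spread more widely. It had 37.2, 77.6, 50.1, 60.7 and 73.8 CPM in high-fat replicates 1 to 5, against the 33.4 to 53.8 CPM of controls. Of the 5 high-fat libraries 3 lay above all controls, and replicates 1 and 3 lay within the control range. The level was 1.45-fold that of controls (95% interval 1.06 to 1.97, adjusted p = 0.113). Without high-fat replicate 1 Slc16a1 was called 1.58-fold higher (95% interval 1.20 to 2.09, adjusted p = 0.0290), where 8.14% of all genes were called higher. Between the fat-rich diets it averaged 57.7 ± 12.2 CPM in ketogenic and 59.9 ± 16.7 CPM in high-fat livers (SD, n = 5 each), a ratio of 0.964 (95% interval 0.722 to 1.29, adjusted p = 0.979). Without ketogenic replicate 5 that ratio was 0.887 (95% interval 0.666 to 1.18, adjusted p = 0.727). The intervals against control reach 1.90-fold in ketogenic and 1.97-fold in high-fat livers.

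Slc16a6 did not pass the test on either diet, and its fitted difference between high-fat and control livers (log2 fold change -0.07) turned above 0 with library totals (0.0585) and without control replicate 2 (0.0926) or 4 (0.0754). It had 12.6, 17.6, 12.2, 15.9 and 16.3 CPM in ketogenic replicates 1 to 5, 8.79, 12.9, 11.2, 9.64 and 11.6 CPM in high-fat replicates 1 to 5, and 15.0, 9.21, 14.6 and 6.57 CPM in control replicates 2 to 5. The controls, at 6.57 to 15.0 CPM, overlapped both other diets, with an SD of 36.5% of their mean, against 16.0% in ketogenic and 15.1% in high-fat livers. Counting error at the lowest count of each diet was 6.47%, 8.11% and 9.32% for ketogenic, high-fat and control livers. Slc16a6 was 1.32-fold its control level after the ketogenic diet (95% interval 0.963 to 1.80, adjusted p = 0.238) and 0.953-fold after the high-fat diet (95% interval 0.698 to 1.30, adjusted p = 0.870). Ketogenic against high-fat livers gave 1.38-fold (95% interval 1.03 to 1.85, adjusted p = 0.510), with high-fat replicate 2 above the 2 lowest ketogenic libraries. Without ketogenic replicate 5 the same comparison gave 1.35-fold (95% interval 0.991 to 1.84, adjusted p = 0.309). Ketogenic against control livers gave 1.27-fold in that fit (95% interval 0.916 to 1.76, adjusted p = 0.346).

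The libraries were strand-keeping, but no source used here gives the strand setting of the counting. Overlap with neighbouring genes may therefore bear on these values, which was not tested. Of the 4883 exon bases of Slc16a6 in GENCODE M21, 21.5% are shared with Amz2 and 0.983% with Arsg, both on the opposite strand, and 1% with the miRNA gene Gm25540 on the same strand, which is named only. Amz2, which encodes a metallopeptidase, had 13.9 ± 3.06 CPM in ketogenic, 15.1 ± 1.23 CPM in high-fat and 14.2 ± 0.535 CPM in control livers and was called in none of the 3 comparisons (adjusted p = 0.901, 0.742 and 0.894 for ketogenic against control, high-fat against control and ketogenic against high-fat). Arsg, which encodes a lysosomal sulfatase, was called higher in ketogenic (24.01 ± 5.67 CPM) and in high-fat livers (25.2 ± 3.34 CPM) than in controls (15.7 ± 2.46 CPM), with adjusted p of 0.0241 and 0.0149. The Arsg call was lost without control replicate 4 or 5 in both comparisons, and without ketogenic replicate 2 or 4 in the ketogenic one (adjusted p from 0.0543 to 0.0900), and there also in a fit of both diets alone (0.0551). Bdh1 shares 13.7% of its exon bases with the antisense gene Gm15743, which had 0 to 2 counts per library where Bdh1 had 2413 to 10382. Acat1 overlaps no other annotated gene there, and the pair of genes overlapping Slc16a1 lie in its introns.

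Ratios of counts within a library do not depend on how libraries are scaled, and they show which members kept pace with each other. There were 1.89 ± 0.298 Acat1 reads for each Bdh1 read in ketogenic, 1.88 ± 0.0939 in high-fat and 1.80 ± 0.322 in control livers, and the ranges of the 3 diets overlapped. In ketogenic replicate 5 the ratio was 2.11, within the range of the others, so both enzyme levels were low there together. The ratio of Acat1 to Slc16a1 was 12.7 ± 4.55 in ketogenic, 9.17 ± 2.68 in high-fat and 6.96 ± 1.498 in control livers. Ketogenic replicates 1 to 4, at 12.1 to 18.1, lay above all controls, at 5.44 to 8.43, while replicate 5, at 5.95, lay among them. Slc16a1 over Slc16a6 was 3.87 ± 0.565 in ketogenic, 5.47 ± 1.04 in high-fat and 3.92 ± 1.21 in control livers, with overlap between all diets. Whether enzymes and carriers differed in their response was not tested.

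**Figure D3:**
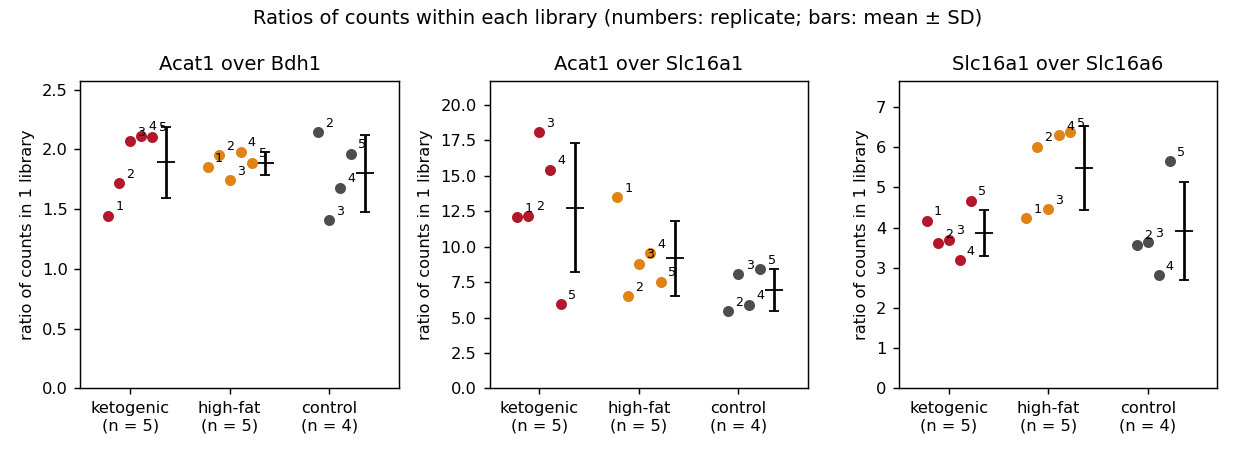
Ratio of the counts of 2 genes in the same library (vertical axes, starting at 0), by diet, with replicate numbers beside the points and the mean ± SD as a bar. Acat1 over Bdh1 stays between 1.41 and 2.14 on all diets, Acat1 over Slc16a1 reaches 18.1 in ketogenic replicate 3, and Slc16a1 over Slc16a6 overlaps between all diets.

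Among the other enzymes of ketone metabolism, the one that draws acetoacetate into lipid synthesis was lower on both fat-rich diets. Aacs, the cytosolic acetoacetyl-CoA synthetase, had 73.6 ± 22.9 CPM in ketogenic, 125.9 ± 16.9 CPM in high-fat and 278 ± 85.4 CPM in control livers. It fell by 1.92 ± 0.24 (SE) on the log2 scale in ketogenic and by 1.14 ± 0.24 in high-fat livers against control (adjusted p = 0.000127 and 0.00592), opposite in sign to Acat1 and Bdh1. Of all tested genes 4.6% were called lower in ketogenic and 5.01% in high-fat livers. Aacs was 1 of 3 tested genes of a list of 5 that leaves some enzymes of the pathway out. The list median, which is the value of Bdh2, was -0.65 in ketogenic and -0.38 in high-fat livers against control on the log2 scale. The median over all genes was 0.03 and 0.01, and Oxct1 lay at 0.14 and 0.17. Bdh2, a cytosolic dehydrogenase, missed the threshold at 12.1 ± 4.30 CPM in ketogenic against 18.9 ± 1.68 CPM in control livers (log2 fold change -0.65 ± 0.21, adjusted p = 0.0547). Oxct1 stayed low on every diet, at 7.96 ± 5.96 CPM in ketogenic, 8.15 ± 0.517 CPM in high-fat and 7.27 ± 2.04 CPM in control livers. Oxct2a and Oxct2b had 0 and 9 counts over all 14 libraries and were not tested.

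Of 8 thiolase genes, Acat1 included, 5 were called higher and 0 lower on each fat-rich diet against control, beside 7.47% (ketogenic) and 6.95% (high-fat) of all genes called higher. Over the list the median log2 fold change was 0.72 in ketogenic and 0.60 in high-fat livers. Acaa1b, a peroxisomal thiolase, had the largest log2 fold change of the list on both diets, at 2094 ± 171 CPM in ketogenic and 2346 ± 429 CPM in high-fat livers, against 575 ± 140.4 CPM in controls (log2 fold change 1.87 ± 0.18 and 2.03 ± 0.19, adjusted p = 2.10e-05 and 1.55e-05). Hadhb, the thiolase subunit of the mitochondrial trifunctional protein, rose by 0.99 ± 0.14 in ketogenic and 0.65 ± 0.14 in high-fat livers on the log2 scale (adjusted p = 0.000339 and 0.00736). Acaa1a, the other peroxisomal thiolase, rose by 1.19 ± 0.20 in ketogenic and 0.82 ± 0.20 in high-fat livers (adjusted p = 0.00103 and 0.0140). The cytosolic thiolase gene Acat3 rose by 0.46 ± 0.11 in ketogenic and 0.55 ± 0.11 in high-fat livers (adjusted p = 0.0124 and 0.00464). Acat3 and Acat2 are neighbouring genes of high similarity, as are Acaa1a and Acaa1b, and no source used here tells how shared reads were counted, which leaves their single values uncertain. Without ketogenic replicate 5, 2 of the 8 thiolase genes, Acat1 among them, were called higher in ketogenic than in high-fat livers. In that fit 0.938% of all genes were called higher in the same comparison.

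Other genes of the SLC16 family and its ancillary proteins were called higher where Slc16a1 and Slc16a6 did not pass with all libraries. Whether these genes differed in their response was not tested. Of the 16 genes of the family and its ancillary proteins, Slc16a1 and Slc16a6 included, 13 were tested, and 4 were called higher and 0 lower on each fat-rich diet against control, where 7.47% (ketogenic) and 6.95% (high-fat) of all genes were called higher. Slc16a5 had 40.6 ± 7.40 CPM in ketogenic and 37.6 ± 10.2 CPM in high-fat livers, against 5.76 ± 4.41 CPM in controls (log2 fold change 2.82 ± 0.40 and 2.71 ± 0.40, adjusted p = 0.000460 and 0.000868), and without control replicate 2 the log2 fold changes were 3.48 and 3.37. Slc16a7, which encodes MCT2, a carrier with high affinity for pyruvate and ketone bodies, had 121 ± 29.1 CPM in ketogenic and 134 ± 27.98 CPM in high-fat livers, against 62.0 ± 16.7 CPM in controls (log2 fold change 0.96 ± 0.21 and 1.11 ± 0.21, adjusted p = 0.00725 and 0.00326). Slc16a13, a lactate carrier, rose by 1.94 ± 0.31 in ketogenic and 1.40 ± 0.31 in high-fat livers on the log2 scale (adjusted p = 0.000665 and 0.00783). The fourth was Bsg, which encodes basigin, the protein that brings MCT1 to the plasma membrane (log2 fold change 0.45 ± 0.14 and 0.56 ± 0.14, adjusted p = 0.0488 and 0.0180 in ketogenic and high-fat livers). The Bsg call was lost without any 1 of ketogenic replicates 1 to 4 or control replicates 3 to 5 in the ketogenic comparison (adjusted p from 0.0507 to 0.145), and there also with RLE size factors (0.0665), no filter on low counts (0.1001), library number as a covariate (0.0745) or a fit of both diets alone (0.0820). It was lost without control replicate 3, 4 or 5 in the high-fat one (adjusted p from 0.0544 to 0.0684). Over the list the median log2 fold change was 0.48 in ketogenic and 0.53 in high-fat livers, which are the values of Slc16a1. Without ketogenic replicate 5 the ketogenic count was 6, where 7.24% of all genes were called higher. Without high-fat replicate 1 the high-fat count was 6, Slc16a1 among them, where 8.14% were.

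**Figure D4:**
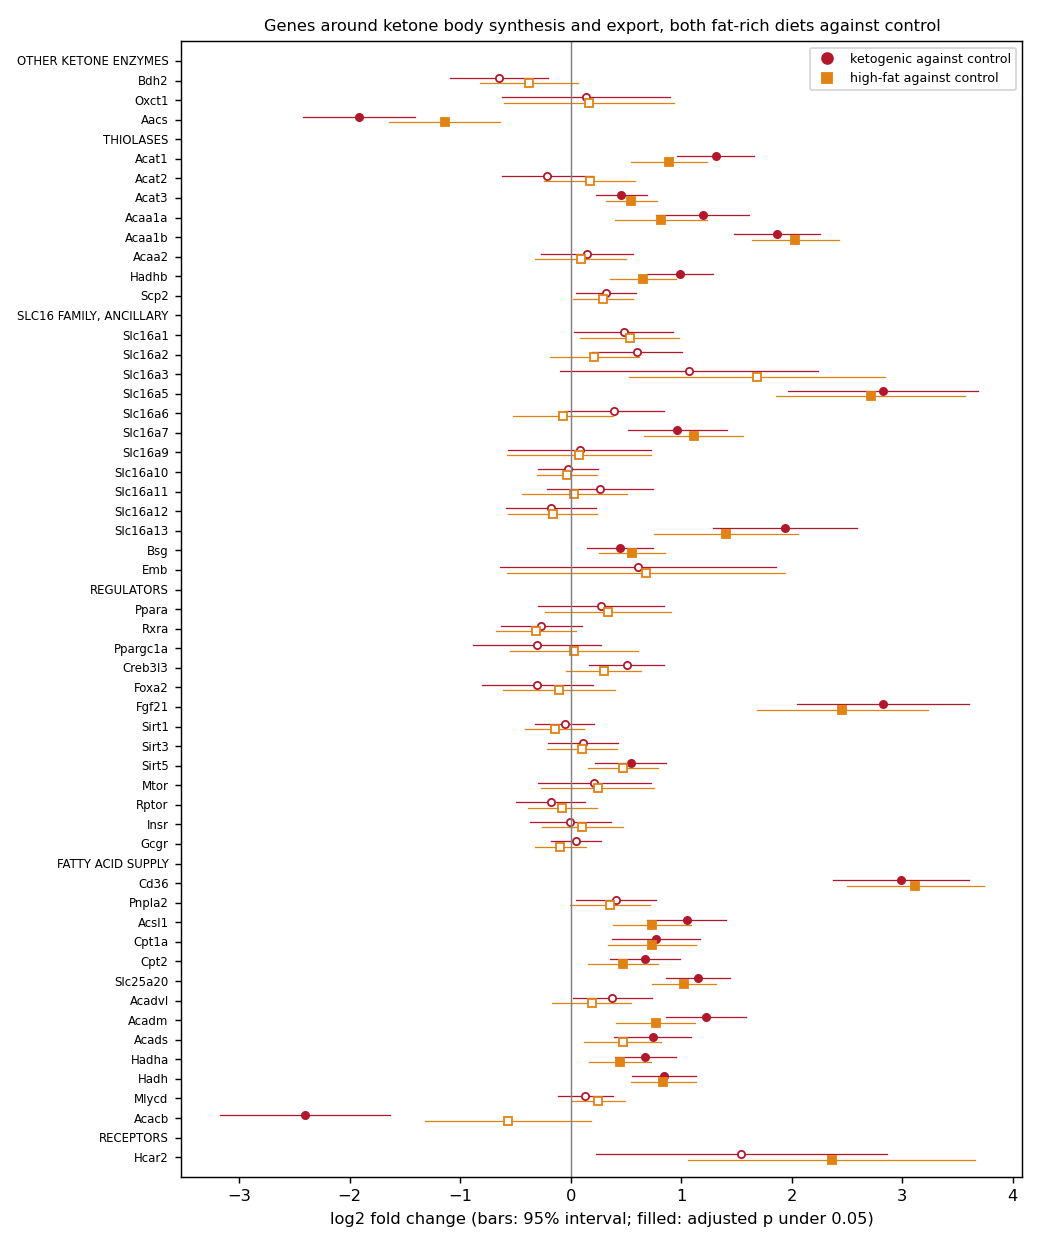
Log2 fold change against control (horizontal axis, with 95% intervals) of each tested gene of the 6 lists around ketone body synthesis and export, in ketogenic (circles) and high-fat livers (squares), which share their control libraries. Filled symbols had an adjusted p under 0.05; Aacs and Acacb lie left of 0, and most thiolases and genes of fatty acid supply lie right of it.

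Of 13 tested regulators of ketone body synthesis, 2 were called higher in ketogenic and 1 in high-fat livers against control, with 0 lower, where 7.47% and 6.95% of all genes were called higher. The high-fat count is near that share. Fgf21, the fasting hormone that PPAR-alpha induces, had 6.42 ± 2.85 CPM in ketogenic and 4.98 ± 1.68 CPM in high-fat livers, against 0.903 ± 0.279 CPM in controls (log2 fold change 2.82 ± 0.37 and 2.46 ± 0.37, adjusted p = 0.000168 and 0.000669). Sirt5, a mitochondrial desuccinylase, rose by 0.54 ± 0.15 in ketogenic livers (adjusted p = 0.0269), a call lost without any 1 of 6 libraries (ketogenic replicates 2 and 4 and all 4 controls; adjusted p from 0.0527 to 0.0754) and in a fit of both diets alone (0.0651). Over the list the median log2 fold change was 0.05 in ketogenic and 0.10 in high-fat livers. Without ketogenic replicate 5, 3 regulators were called higher in ketogenic livers, where 7.24% of all genes were.

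The list around fatty acid supply to ketone body synthesis held 13 genes, including Acacb, which acts against that supply. Of the 13, 9 were called higher and 1 lower in ketogenic livers against control. In high-fat livers 8 were called higher and 0 lower. The median log2 fold changes were 0.74 in ketogenic and 0.47 in high-fat livers. Of all genes 7.47% were called higher and 4.6% lower in ketogenic livers, and 6.95% and 5.01% in high-fat livers. Cd36, a fatty acid transporter, rose by 2.99 ± 0.29 in ketogenic and by 3.12 ± 0.29 in high-fat livers (adjusted p = 2.10e-05 and 1.86e-05). Slc25a20, the mitochondrial carnitine carrier, rose by 1.15 ± 0.14 and 1.02 ± 0.14 in the same order (adjusted p = 9.47e-05 and 0.000325). Acadm, the medium-chain acyl-CoA dehydrogenase, rose by 1.22 ± 0.17 and 0.77 ± 0.17 (adjusted p = 0.000271 and 0.00803), close to the values of Acat1. The gene called lower was Acacb, whose product makes the malonyl-CoA that holds back fatty acid entry into mitochondria. Acacb had 49.3 ± 28.1 CPM in ketogenic and 177 ± 49.9 CPM in high-fat livers, against 262 ± 79.1 CPM in controls (ketogenic against control: log2 fold change -2.41 ± 0.36, adjusted p = 0.000627). Hcar2, the receptor for beta-hydroxybutyrate, was the only tested gene of 3 receptor genes. It had 0.668 ± 0.473 CPM in ketogenic and 1.20 ± 0.338 CPM in high-fat livers, against 0.229 ± 0.184 CPM in controls, and was called in high-fat livers (log2 fold change 2.36 ± 0.61, adjusted p = 0.0208), which did not pass in fits that dropped control replicate 4 (adjusted p = 0.0784) or 5 (0.0636). In ketogenic against high-fat livers edgeR called 0 genes of the 6 lists with all libraries, where 9 of all genes were called. There 1273 genes had an unadjusted p under 0.05, and the list medians lay between -0.82 and 0.13. Acacb missed the threshold in that comparison (log2 fold change -1.84 ± 0.34, adjusted p = 0.0636). Without ketogenic replicate 5, 1 of the 13 fatty acid supply genes was called higher and 1 lower, where 2.19% of all genes were called in either direction. Against control that fit called 10 of the 13 higher and 1 lower, where 7.24% of all genes were called higher. Without high-fat replicate 1 the high-fat count against control was 7 higher and 0 lower, where 8.14% of all genes were called higher.

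The genes whose pattern over the 14 libraries was most like that of each member were sought among 11636 other tested genes with a mean of at least 1 CPM. Likeness was the root mean square difference of log2 CPM, each gene centred on its own mean, whose median over all candidates was 0.63 for Acat1 and 0.62 for Bdh1. Acadm was nearest to Acat1, at a difference of 0.11, followed by Decr1, a dienoyl-CoA reductase (0.13), and Eci1, an enoyl-CoA isomerase (0.14). For Bdh1 Acadm (0.14) and Etfdh, the electron transfer flavoprotein dehydrogenase (0.17), were among the 3 nearest, and the other is not reported here. These 4 genes encode mitochondrial enzymes of fatty acid oxidation. The genes nearest to the carriers differed from them by 0.17 to 0.21, and Etfdh differed from Bdh1 by a like amount (0.17). Mreg, Stx2 and Fkbp1a were nearest to Slc16a1 (0.17, 0.17 and 0.18, against a median of 0.47), and Thg1l, Ncoa5 and Apoc2 to Slc16a6 (0.19, 0.20 and 0.21, against a median of 0.47). Genes that vary little in these libraries are favoured by this measure, and the libraries' depth and diet means are shared by all genes.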

How the data were processed

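Liver poly(A) RNA was sequenced from strand-keeping libraries, per the labels' protocols. The authors deposited raw counts per Ensembl gene, 1 column per library. Per the submitters' processing notes, cutadapt 1.16, STAR 2.7.9a, featureCounts 1.6, DESeq2 1.36.0 and GRCm39 are named, without roles. The annotation release, strand setting and treatment of multi-gene reads are in none of the sources used here. Symbols came from GENCODE M21 (GRCm38) and matched 91.39% of IDs and 98.17% of those tested. Exon lengths came from the same annotation.

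Genes were kept with filterByExpr (minimum count 10, minimum total 15) in edgeR 4.0.16, scaled with TMM (factors 0.886 to 1.22) and tested two-sided in R 4.3.3 by glmQLFTest, after estimateDisp and a robust glmQLFit on all 3 diets together, with Benjamini-Hochberg adjustment over 14627 genes and a threshold of 0.05. Depth was 16329425 to 25349148 counts per library, which sets the counting error of low genes such as Slc16a6. The SE is the absolute log2 fold change over the square root of F, and 95% intervals use the fit's degrees of freedom. Likeness used log2 CPM with a prior count of 2. The fit was tested on simulated counts. No 2 libraries held identical values. Same-numbered libraries mostly did not deviate together. For ketogenic against control the correlation was over 0.1 in 1 of 4 pairs (0.418, replicate 2). For high-fat against control it was over 0.1 in 0 of 4 pairs. For ketogenic against high-fat it was over 0.1 in 2 of 5 pairs (0.212 and 0.181, replicates 4 and 5). The replicate number was therefore not used as a block, and values with such a block are given below.

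The members and lists were chosen with earlier results of these data known. The rule named the 4 members, up to 4 called genes of each of 6 lists with the smallest adjusted p or else the tested one with the highest mean, the 3 genes most like each member, and overlapping genes. The text prints part of these, and some genes of the pathway, 1 of those nearest to Bdh1 included, are not reported here. Bdh2, Oxct1 and untested genes were named after their values were seen. Alternatives were DESeq2 1.42.0, its size factors (RLE), library totals, other filters on low counts, fits on 2 diets, the replicate number or library number as a covariate, and leaving out each library. List counts without ketogenic replicate 5 and high-fat replicate 1 and the gap test on the log2 scale were added after seeing the data.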

Additional observations from a re-analysis of the deposited data

Results flagged for a closer look

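Control replicate 1, which the submitters excluded as contaminated and which enters no comparison, held more Acat1 and Bdh1 than the 4 control libraries used. As CPM of the library total, without TMM scaling, Acat1 was at 307 in control replicate 1, against 222 to 281 in the other controls, and Bdh1 at 224, against 131 to 184. Slc16a1 at 37.9 lay within the range of the other controls (32.2 to 51.6), and Slc16a6 at 5.13 lay below it (5.81 to 14.4). Within the diets, Bdh1 in ketogenic replicate 5 stood apart from its group on the log2 scale, at 7.75 log2 CPM, where its gap to the next library was 0.735 of the group's range (Dixon's limit for 5 libraries is 0.71). On the CPM scale the gap was 0.659 of the range and under that limit. Chance puts about 1 group in 20 past the limit, and 12 groups were tested on each scale.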

How the results depend on the processing

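Acat1 and Bdh1 kept their direction and their call against control under all alternatives tried, with log2 fold changes of 1.25 to 1.46 and 1.17 to 1.40 in ketogenic livers and 0.82 to 1.01 and 0.73 to 0.92 in high-fat livers. Leaving out 1 library at a time gave 1.25 to 1.41 for Acat1 and 1.17 to 1.37 for Bdh1 in ketogenic livers. Against high-fat livers the range was 0.36 to 0.54 for Acat1 (adjusted p 0.0266 to 0.682) and 0.37 to 0.60 for Bdh1 (adjusted p 0.0136 to 0.734), called only without ketogenic replicate 5.

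Slc16a1 ranged from 0.34 to 0.63 in ketogenic and 0.42 to 0.68 in high-fat livers against control when 1 library was left out, and from -0.18 to 0.06 against high-fat livers, changing sign without ketogenic replicate 3 (0.0233) or high-fat replicate 2 (0.0566) or 5 (0.0332). Slc16a6 ranged from -0.26 to 0.09 in high-fat livers against control, above 0 without control replicate 2 (0.0926) or 4 (0.0754). With library totals Slc16a6 was at 0.0585 there and Slc16a1 at 0.0105 in ketogenic against high-fat livers. With the replicate number as a block, Slc16a1 was called in ketogenic (0.57, adjusted p = 0.0413) and high-fat livers (0.59, adjusted p = 0.0313) against control, and Slc16a6 was at 0.0347 in high-fat livers. The block also ended the calls of Hcar2 in high-fat (adjusted p = 0.0604) and Bsg in ketogenic livers (0.0725). The block gave 1297 calls for ketogenic against control, 1380 for high-fat against control and 15 for ketogenic against high-fat, and 2 of 9, 1 of 9 and 1 of 10 libraries correlated best with their own number. The causes were not tested.

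The count of changed genes was 1766 for ketogenic against control (1056 to 2201 with 1 library left out), 1749 for high-fat against control (934 to 2145) and 9 for ketogenic against high-fat (1 to 315, the highest without ketogenic replicate 5). Ketogenic against high-fat gave 15 with library totals, 26 with no filter on low counts, 3 with library number as a covariate, 169 with DESeq2 and 1 in a fit of both diets alone. Library totals shifted the median log2 fold change to 0.21 in ketogenic and 0.13 in high-fat livers against control and the split to 1826 higher and 368 lower, and 1302 and 420, against 1093 and 673, and 1016 and 733, with TMM. Among the members Slc16a6 had the fewest counts.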
